A study of Homo sapiens with 12 samples.

Results

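A549 is an established human lung adenocarcinoma cell line with an epithelial shape, and it is often used as a stand-in for alveolar type II cells, the surfactant-making cells of the lung. The RNA of unmodified A549 cells (the WT group) is described here from 3 libraries, biological replicates 1 to 3 of the labels, out of 12 libraries in 4 groups of 3. The members were picked out by their genotype label and their count column, with earlier results of these data known. The whole study set WT cells beside cells with YTHDF1 knocked out, cells with ARID1A silenced by small interfering RNA, and cells with both changes, which are not compared here. Per the labels, WT cells grew at 37 °C and 5% CO2 in RPMI 1640 medium with 10% fetal bovine serum, penicillin and streptomycin, and 5 µg of total RNA went into a stranded library. No label names a control small interfering RNA, or any treatment for the WT cells. Nothing in the labels says whether the 3 replicates came from separately thawed cultures, so the spread given below is the spread between these libraries, which may be technical.

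Some background makes the values easier to read. Alveolar type II cells make surfactant proteins under the transcription factor NKX2-1, and in mouse lung tumours cells that have lost that factor can turn on genes of other endodermal organs such as gut and liver. NRF2, encoded by NFE2L2, is the transcription factor that turns on antioxidant and detoxifying enzymes, and KEAP1 is the adaptor that has it degraded. A549 is known for a KEAP1 mutation, a loss of STK11 function, a mutation of SMARCA4 and a deletion at the CDKN2A locus. None of these alleles was read from the data here, which are counts of RNA only.

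Levels are counts-per-million values (CPM) on the library total, given for replicates 1, 2 and 3 in that order or as mean ± SD over the 3 libraries (n = 3). CPM is not divided by length, so that a larger CPM of 1 gene than of another is a larger number of reads. Where levels of different genes are compared, this is per length, as transcripts-per-million values (TPM) from the exon length of each gene or as shares of the TPM of a family. The library totals were 43922216, 45042635 and 33970369 counts. A total of 3 counts over the 3 libraries, which is 0.0244 CPM, is taken as the limit that a count of 0 allows, for counting error only. Genes at or under it are given as not detected at this depth. Among genes with 1 to 8 counts, 73.7%, 73.9% and 70.9% had an even count in replicates 1, 2 and 3, which single independent reads would not give, so this floor is approximate. In bulk RNA, fewer cells with a transcript and less of it per cell cannot be told apart.

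Of the 60617 genes in the table, 13631 (22.5%) had a mean of at least 1 CPM, 9252 at least 10 CPM, 2070 at least 100 CPM and 84 at least 1000 CPM, whereas 31534 had no count in any of the 3 libraries. Among the 19909 nuclear protein-coding genes, 60.3% reached 1 CPM, 45.3% reached 10 CPM and 10.3% reached 100 CPM, and 22.97% were not detected. These shares are the background against which the lists below are to be read. The lists held 1078 measured genes, of which 556 (51.6%) reached 10 CPM and 133 were not detected. Replicate 2 stood apart from the other libraries, with fewer counts on mitochondrially encoded and ribosomal protein genes. Without it the number of list genes at 10 CPM in each of the 47 lists stayed within 1.5 times the number given here.

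**Figure D1:**
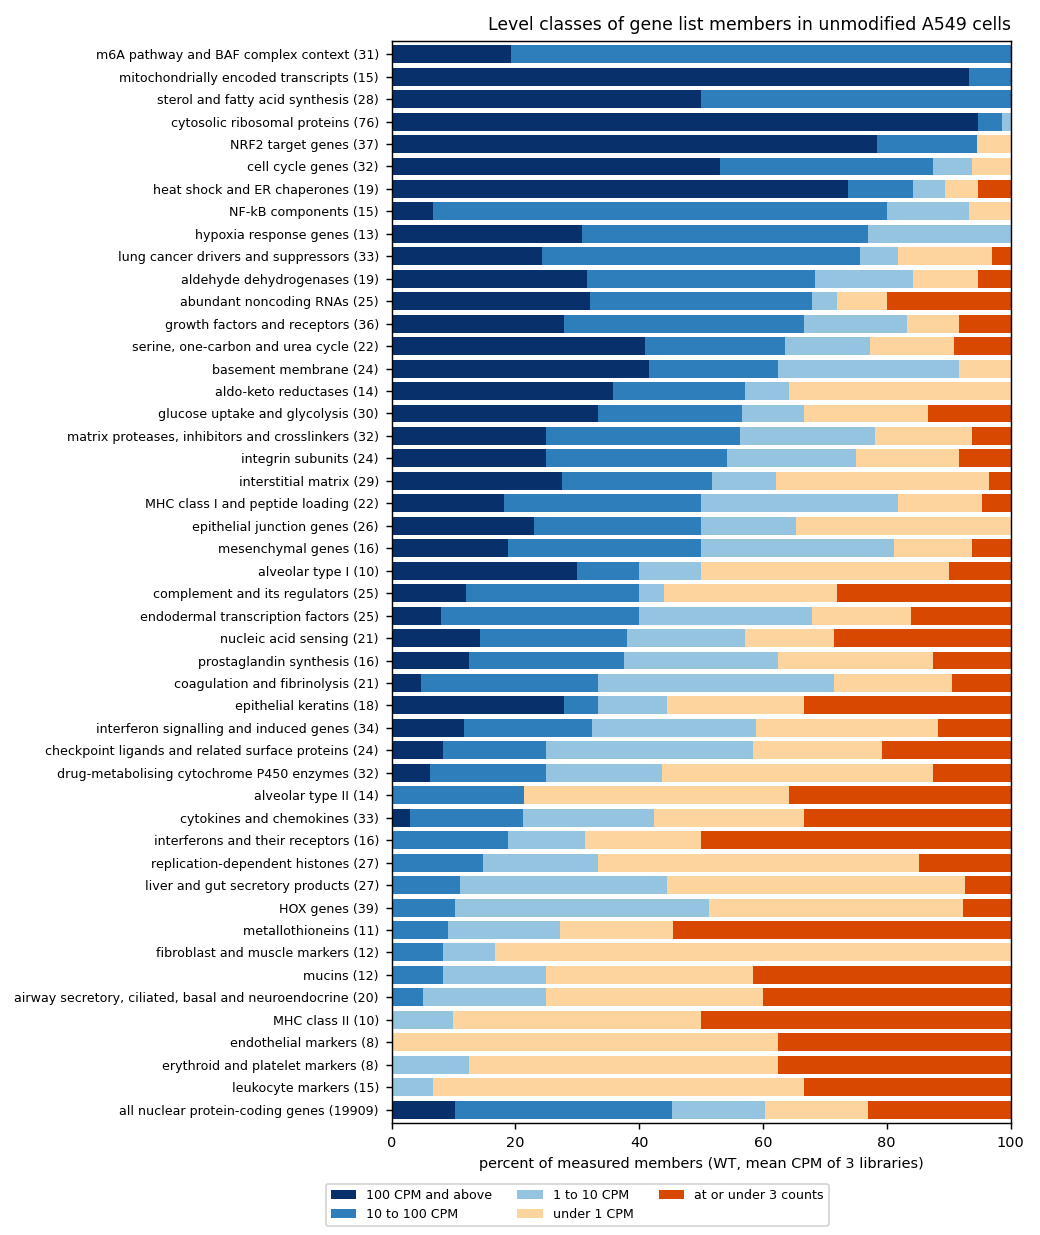
Each bar is 1 gene list with its number of measured members in parentheses, and the segments give the percent of members in each level class by mean CPM of the 3 WT libraries. The lowest bar holds all 19909 nuclear protein-coding genes, of which 45.3% reached 10 CPM. All members of the sterol and fatty acid list reached 10 CPM, and no member of the leukocyte, endothelial, erythroid or MHC class II lists did.

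The nuclear genes with the most reads were those of translation, cytoskeleton, glycolysis and detoxification. EEF1A1, the elongation factor that brings transfer RNA to the ribosome, averaged 6939.9 ± 682 CPM. ALDH1A1, a retinaldehyde dehydrogenase, had 6479, 7275 and 6631 CPM, so that the 3 libraries lay close together. On the level per length, with exon length, it stood second among nuclear protein-coding genes, at 8587 ± 1248 TPM, behind FTL, the ferritin light chain, at 19691 ± 2076 TPM. The rest of the 20 genes with the most reads were FLNA, an actin crosslinker, ACTB and ACTG1, the cytoplasmic actins, FTL, the glycolytic enzymes PKM and ENO1, KRT8, the amino acid transporter SLC7A5, AKR1C2, and 9 mitochondrially encoded genes. FLNA averaged 6789 ± 1016 CPM, ACTB 5540.3 ± 212 CPM and SLC7A5 4335 ± 469.6 CPM. The 10 genes with the most reads held 8.02% of the counts and the first 100 held 24.7%.

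Most genes of the alveolar type II list were low or not detected in these 3 libraries. Of its 14 genes, 3 reached 10 CPM (21.4%, beside 45.3% of all nuclear protein-coding genes). LPCAT1, which makes the saturated phosphatidylcholine of surfactant, had 83.9, 100.2 and 76.2 CPM. ABCA3, the lipid pump of lamellar bodies, had 45.1, 55.6 and 42.2 CPM, and ETV5, a transcription factor of type II cells, had 35.2, 39.4 and 49.2 CPM. These 3 genes were well above the floor in every library. By contrast, CLDN18, a tight junction protein, averaged 0.790 CPM, NAPSA, a protease that processes surfactant proteins, 0.527 CPM, and LAMP3, a lysosomal membrane protein, 0.214 CPM. The surfactant protein genes had few or no counts. SFTPB had 4, 5 and 4 counts, SFTPD 0, 4 and 2 counts and SFTPC 1, 4 and 0 counts, a few reads in whole libraries. SFTPA1, SFTPA2 and PGC had no count, and NKX2-1 and SLC34A2, a phosphate transporter of type II cells, had 2 counts each over the 3 libraries. None of these 5 undetected genes reached the share of its sequence in common with another gene at which it was marked as uncertain.

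Promoters of type II genes that were and were not transcribed, and of ALDH1A1, are shown because they differ in the number of the dinucleotide CG, which is dense in the promoters of many broadly active genes. The windows run from 250 bases before to 50 bases after the gene start (RefSeq, GRCh38.p14), 5′ to 3′ on the gene's strand, with every CG in capitals. LPCAT1 lies at chr5:1523911-1524210 on the minus strand, ALDH1A1 at chr9:72953004-72953303 on the minus strand, SFTPA1 at chr10:79610689-79610988 on the plus strand and SLC34A2 at chr4:25655601-25655900 on the plus strand.
LPCAT1: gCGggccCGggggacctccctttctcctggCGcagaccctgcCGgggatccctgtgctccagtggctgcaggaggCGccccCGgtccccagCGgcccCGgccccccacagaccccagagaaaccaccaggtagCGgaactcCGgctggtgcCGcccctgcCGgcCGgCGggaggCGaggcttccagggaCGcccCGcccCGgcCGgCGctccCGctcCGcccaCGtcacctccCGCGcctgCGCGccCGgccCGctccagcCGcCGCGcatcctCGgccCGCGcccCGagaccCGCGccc
ALDH1A1: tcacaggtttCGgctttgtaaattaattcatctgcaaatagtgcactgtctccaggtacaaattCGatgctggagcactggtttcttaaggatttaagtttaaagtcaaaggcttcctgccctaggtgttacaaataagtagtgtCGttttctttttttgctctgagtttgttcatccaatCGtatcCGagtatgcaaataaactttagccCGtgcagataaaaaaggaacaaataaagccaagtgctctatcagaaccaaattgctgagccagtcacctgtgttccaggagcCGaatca
SFTPA1: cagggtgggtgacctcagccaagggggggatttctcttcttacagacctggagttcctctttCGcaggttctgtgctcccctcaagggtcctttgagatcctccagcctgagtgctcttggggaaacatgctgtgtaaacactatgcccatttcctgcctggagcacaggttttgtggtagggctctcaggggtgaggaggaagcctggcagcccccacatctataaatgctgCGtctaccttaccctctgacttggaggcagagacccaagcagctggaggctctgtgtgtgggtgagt
SLC34A2: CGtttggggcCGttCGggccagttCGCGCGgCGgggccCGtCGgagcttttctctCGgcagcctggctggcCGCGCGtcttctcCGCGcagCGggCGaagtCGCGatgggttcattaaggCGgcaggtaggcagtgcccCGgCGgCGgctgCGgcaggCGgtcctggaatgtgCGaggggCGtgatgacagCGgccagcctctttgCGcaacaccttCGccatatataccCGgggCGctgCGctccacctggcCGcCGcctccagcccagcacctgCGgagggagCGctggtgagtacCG
LPCAT1 held 38 CG in its 300 bases and was transcribed at 86.8 CPM, while SFTPA1 held 2 CG and had no count. The other pair ran the other way: ALDH1A1 held 7 CG and averaged 6795 CPM, and SLC34A2 held 38 CG and had 0.0152 CPM.

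Over the 15272 nuclear protein-coding genes whose promoter could be matched by symbol and chromosome, of 19864, the CG number was larger in higher level classes. The median was 5 CG in genes not detected, 12 in those under 1 CPM, 23 from 1 to 10 CPM, 27 from 10 to 100 CPM and 29 at 100 CPM and above. Of promoters with 0 to 4 CG, 18.5% belonged to genes of at least 1 CPM, and of those with 30 or more CG, 84.8% did. SFTPA1 and LPCAT1 followed this order, and ALDH1A1 and SLC34A2 went against it. The letters TATAAA, searched on both strands, stood in 9.59% of all matched promoters, in 21.2% of those of undetected genes, in 4.31% of those from 10 to 100 CPM and in 16.9% of the 59 at 1000 CPM and above. These are descriptions across genes, which are not independent replicates, and methylation of these bases was not measured.

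The alveolar type I list had 4 of 10 genes at 10 CPM, and these were genes that other epithelia also use. CAV1, the coat protein of caveolae, averaged 537 ± 19.4 CPM, GPRC5A, a retinoic acid induced receptor, 247 ± 13.96 CPM, CAV2 205 ± 15.6 CPM and EMP2, a membrane protein, 46.3 ± 4.16 CPM. AGER, the receptor used most often to mark type I cells, was at 0.934 CPM, PDPN had no count, and HOPX had 10 counts, all of them in replicate 2. Of the 20 genes of airway secretory, ciliated, basal and neuroendocrine cells only MUC5B, a gel-forming mucin, reached 10 CPM, at 21.5 ± 2.76 CPM. Per length MUC5B fell under 10 TPM, and the list then had no such member. MUC5AC stood at 5.64 ± 1.04 CPM and TP63, the basal cell factor, at 1.52 ± 0.438 CPM, and CALCA, BPIFA1, BPIFB1, KRT14, SCGB3A1, SCGB3A2, TEKT1 and TFF3 had no more than 3 counts.

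Several transcription factors of foregut, liver and gut endoderm were well expressed, while NKX2-1 was not detected. Of the 25 on the list, 10 reached 10 CPM (40%, beside 45.3% of all nuclear protein-coding genes). The list median was 4.18 CPM, beside 5.83 CPM for all those genes, so the list as a whole was not high. HNF4A, a nuclear receptor of liver and gut, had 128, 134 and 105 CPM. CEBPB, a factor of acute phase and metabolic genes, had 110.5, 199 and 191 CPM, with replicate 1 lower than the other libraries. ELF3 averaged 94.7 ± 5.43 CPM, KLF5 85.03 ± 11.5 CPM and SOX9 69.2 ± 8.14 CPM. FOXA2, a pioneer factor of endoderm, averaged 36.97 ± 4.44 CPM and its relative FOXA1 9.73 ± 0.325 CPM. Per length, FOXA2 made up 84.4% ± 1.10 of the FOXA transcripts. CDX1, GRHL2, ONECUT3 and PDX1 had no count.

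The liver and gut products that such factors are known to drive were mostly low: 3 of 27 reached 10 CPM. TM4SF4, a membrane protein of liver and gut, averaged 60.9 ± 6.30 CPM, CPS1, the first enzyme of the urea cycle, 49.7 ± 4.76 CPM, and FGL1, a liver-secreted protein, 10.8 ± 2.37 CPM. FGA, a fibrinogen chain, stood at 6.79 ± 0.229 CPM and VIL1, the villin of brush borders, at 6.44 ± 0.659 CPM. ALB had 8, 62 and 2 counts, and TTR and APOA2 had 24 counts each, all in replicate 2. The 15 members of this list under 1 CPM summed to 122, 313 and 107 counts in replicates 1, 2 and 3, which is 2.78, 6.95 and 3.15 CPM. All nuclear protein-coding genes under 1 CPM summed to 911, 1023 and 893 CPM. Replicate 2 thus held more of the low counts of this list than the other libraries together.

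**Figure D2:**
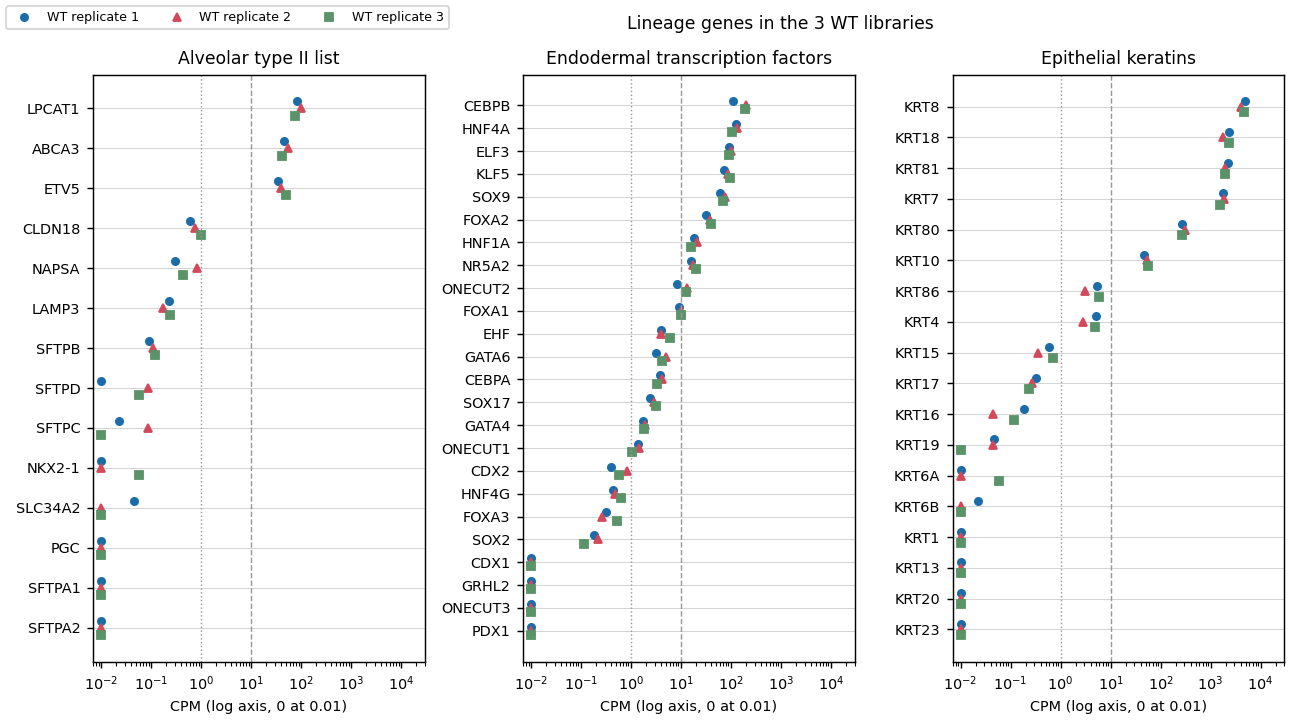
Points give CPM on a log axis in WT replicate 1 (circles), 2 (triangles) and 3 (squares) for members of the alveolar type II, endodermal transcription factor and keratin lists, with 0 drawn at 0.01. Lines mark 1 and 10 CPM. LPCAT1, ABCA3 and ETV5 lie above 10 CPM and the surfactant genes lie at the left edge.

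The cells carried a simple epithelial keratin set. KRT8 had 4839.6, 4112 and 4676 CPM, its partner KRT18 averaged 2159.5 ± 353 CPM and KRT7 1733 ± 152 CPM. KRT81, a keratin best known from hair, averaged 2050.4 ± 144 CPM, but 35.4% of its 75-base words also occur in another gene, so its level is uncertain. Per length, the ratio of KRT8 to KRT18 was 0.994 ± 0.0929 with exon length and 1.76 with median transcript length, so the ratio depends on which length is used. KRT18 made up 96.4% ± 0.708 of the type I keratins of the list. KRT19, a type I keratin of most simple epithelia, had 2, 2 and 0 counts, although none of its sequence is shared. KRT20, KRT13, KRT23 and KRT1 had no count.

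Junction genes were present in part, and mesenchymal genes stood beside them. Of 26 junction genes, 13 reached 10 CPM, among them CTNND1, the p120 catenin, at 345 ± 24.3 CPM, CTNNB1, beta-catenin, at 289 ± 14.2 CPM and JUP, plakoglobin, at 237 ± 22.7 CPM. Per length JUP was at 173 ± 30.1 TPM, CTNND1 at 141 ± 21.8 TPM and CTNNB1 at 86.8 ± 3.40 TPM. CDH1, E-cadherin, averaged 98.7 ± 4.70 CPM and CDH2, N-cadherin, 80.7 ± 4.52 CPM, and per length the ratio of CDH2 to CDH1 was 1.02 ± 0.0199 with exon length and 0.670 with transcript length. EPCAM, an epithelial adhesion molecule, was low at 3.33 ± 0.238 CPM, and CLDN7, ST14 and the splicing regulators ESRP1 and ESRP2 were at or under 0.208 CPM. Of 16 mesenchymal genes, 8 reached 10 CPM. VIM, vimentin, averaged 467 ± 18.1 CPM, FN1, fibronectin, 390.1 ± 36.4 CPM, S100A4 279 ± 57.3 CPM and the repressor ZEB1 32.1 ± 3.36 CPM. PRRX1 had no count. Of 12 mucins only MUC13 reached 10 CPM, at 15.9 ± 1.25 CPM, and MUC1 averaged 1.96 ± 0.310 CPM. Of 39 HOX genes 4 did, HOXA3 at 21.4 ± 3.17 CPM and 3 genes of the HOXB cluster, HOXB3, HOXB7 and HOXB9.

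Few markers of other cell types reached 10 CPM. No member of the leukocyte (15), endothelial (8) or erythroid and platelet (8) lists reached 10 CPM. Their members with the most reads were ITGAM at 2.09 CPM, CLDN5 at 0.734 CPM and ITGA2B at 1.66 CPM. The leukocyte list summed to 4.19, 5.73 and 5.36 CPM in the 3 libraries, with CD3D and MS4A1 at 0. Of 12 fibroblast and muscle genes only COL1A1, a fibrillar collagen chain, passed 10 CPM, at 37.4, 57.1 and 29.4 CPM. Its partner chain COL1A2 had 0, 28 and 0 counts, and was not detected in replicates 1 and 3.

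Several receptor tyrosine kinases of the growth signalling list were well transcribed. EGFR had 425, 487 and 475 CPM and MET, the receptor of hepatocyte growth factor, 355, 378 and 353 CPM. AXL, a receptor kinase linked to mesenchymal states, averaged 413 ± 26.4 CPM, IGF1R 388 ± 15.3 CPM, EPHA2 349.7 ± 23.2 CPM and FGFR1 329 ± 53.4 CPM. Per length FGFR4 made up 64.5% ± 2.08 of the FGF receptor transcripts, EGFR 77.9% ± 1.01 of the ERBB receptors and MYC 99.3% ± 0.256 of the MYC genes. The ligands TGFB1 and NRG1 averaged 177 ± 9.81 CPM and 154 ± 7.72 CPM, while EGF stood at 1.23 CPM, HGF at 0.0296 CPM and KIT and IGF1 had no count. IGF2 also had none, but its sequence is shared with another gene.

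Of 33 lung cancer drivers and suppressors, 25 reached 10 CPM (75.8%). CCND1, cyclin D1, averaged 377 ± 28.6 CPM, MYC 197 ± 8.65 CPM and NF1 191 ± 8.14 CPM. The genes mutated in this line were transcribed: STK11 averaged 59.3 ± 5.92 CPM, KEAP1 103 ± 10.9 CPM and SMARCA4, the BAF ATPase, 26.3 ± 5.02 CPM. The alternative ATPase SMARCA2 averaged 58.7 ± 3.51 CPM, and per length SMARCA4 was at 0.532 ± 0.116 of SMARCA2 with exon length and at 0.200 with transcript length. The targets of the study's other groups were transcribed in WT cells, with ARID1A, a DNA-binding BAF subunit, at 153, 176 and 139 CPM and YTHDF1, a reader of N6-methyladenosine, at 80.4, 91.1 and 80.2 CPM. All 31 genes of the list that holds these complexes reached 10 CPM. MDM2, a ubiquitin ligase, averaged 84.2 ± 1.97 CPM and TERT, the telomerase catalytic subunit, 13.4 ± 4.46 CPM. ALK, RET and MYCN stayed under 1 CPM and ROS1 at 2.20 CPM.

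Along the short arm of chromosome 9 the levels around the CDKN2A locus were uneven. In the order of the chromosome (GENCODE 29, GRCh38), MLLT3 averaged 44.3 ± 2.40 CPM, FOCAD 77.1 ± 3.53 CPM and KLHL9, a ubiquitin ligase adaptor (chr9:21329671-21335380), 58.5 ± 6.81 CPM. Low and undetected genes also lay between FOCAD and MTAP. HACD4 averaged 2.23 ± 0.554 CPM, the noncoding gene MIR31HG 6.71 ± 0.216 CPM and IFNE 1.18 ± 0.201 CPM, and the interferon genes IFNB1 and IFNA2 had no count. MTAP, the methylthioadenosine phosphorylase (chr9:21802543-21937651), had 18, 11 and 1 counts. CDKN2A, which encodes the cell cycle inhibitors p16 and p14ARF (chr9:21967753-21995301), had 0, 8 and 0 counts. CDKN2B (chr9:22002903-22009363) had no count, and the antisense gene CDKN2B-AS1, which spans that gene (chr9:21994778-22121097), averaged 5.03 ± 0.809 CPM. The strand setting of the counting is not given in the sources used here, so reads of these overlapping genes may not be told apart. DMRTA1, farther on, averaged 2.38 ± 0.680 CPM. Whether DNA was lost here was not tested, as only RNA counts were used.

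Cell cycle genes were abundant: 28 of 32 cell cycle genes reached 10 CPM (87.5%). TOP2A, a topoisomerase of dividing cells, averaged 737 ± 58.4 CPM, MKI67 572 ± 13.4 CPM and CCND3 436 ± 16.9 CPM. The clamp PCNA averaged 307 ± 8.03 CPM and CDKN1A, which encodes the inhibitor p21, 150.3 ± 5.78 CPM. Cyclin D1 and cyclin D3 made up 50.9% ± 1.43 and 49.1% ± 1.44 of the D-type cyclins per length with exon length, and 42.3% and 57.7% with transcript length. CCND2 was at 0.0596 CPM.

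The NRF2 target list held the most reads of the metabolic lists after the mitochondrial one. Of its 37 genes 35 reached 10 CPM and 29 reached 100 CPM, and together they held 3.20% of all counts. Besides FTL, several aldo-keto reductases had many of these reads. AKR1B1, an aldose reductase, had 3323, 3056 and 3487 CPM, AKR1B10, which reduces retinal and lipid aldehydes, 2543, 2226 and 2657 CPM, and AKR1C2 averaged 3704 ± 323 CPM. AKR1C2 shares 31.2% of its 75-base words with other genes, so its split from AKR1C1 is uncertain. The enzymes that make NADPH, the reducing agent of the antioxidant system, were transcribed too. PGD averaged 1439 ± 90.8 CPM, TKT 1879.6 ± 104 CPM and TALDO1 336 ± 30.2 CPM. TXNRD1, thioredoxin reductase, averaged 1719 ± 49.5 CPM and NQO1, a quinone reductase and common marker of NRF2, 908 ± 71.4 CPM. SLC7A11, the cystine importer, averaged 422 ± 54.6 CPM and HMOX1, heme oxygenase, 261 ± 8.66 CPM. NFE2L2 averaged 113 ± 13.7 CPM. Only CBR3 at 0.582 ± 0.124 CPM and UGT1A6, whose exons are shared with its gene cluster, at 0.288 ± 0.0612 CPM fell under 10 CPM.

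GCLM and ME1 are shown because they carry the letters TGACNNNGC, which follow the antioxidant response element that NRF2 binds. GCLM encodes the regulatory subunit of the enzyme that starts glutathione synthesis, and ME1 the NADP-dependent malic enzyme. The windows are again 250 bases before to 50 after the start (RefSeq, GRCh38.p14), GCLM at chr1:93909381-93909680 and ME1 at chr6:83431002-83431301, both on the minus strand, with the matches on either strand in capitals.
GCLM: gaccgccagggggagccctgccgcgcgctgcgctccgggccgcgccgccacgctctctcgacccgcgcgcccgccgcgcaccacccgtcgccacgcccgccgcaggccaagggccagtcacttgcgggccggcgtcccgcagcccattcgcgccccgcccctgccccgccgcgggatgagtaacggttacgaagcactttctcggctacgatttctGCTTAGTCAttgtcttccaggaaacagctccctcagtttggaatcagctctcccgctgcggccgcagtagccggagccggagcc
ME1: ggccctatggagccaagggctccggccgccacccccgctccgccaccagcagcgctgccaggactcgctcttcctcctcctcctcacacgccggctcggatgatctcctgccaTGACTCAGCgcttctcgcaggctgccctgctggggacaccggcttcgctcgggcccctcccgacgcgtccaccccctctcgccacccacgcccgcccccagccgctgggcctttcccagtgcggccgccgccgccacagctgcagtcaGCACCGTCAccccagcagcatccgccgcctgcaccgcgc
GCLM held 1 match, which began 34 bases before the start, and ME1 held 2. GCLM had 186, 268 and 249.7 CPM and ME1 averaged 162 ± 9.08 CPM. Of the 27 list promoters that could be matched, 7 (25.9%) held the letters on either strand, beside 14.3% of all matched promoters. The share was 22.0% in the 59 promoters of genes at 1000 CPM and above. Among other lists it ran from 0% of 9 promoters (alveolar type I) to 60% of 5 (metallothioneins). It was 24% of 25 in the cell cycle list and 8.20% of 61 in the ribosomal protein list. A share of this size was thus not particular to the NRF2 list. The match is a description of letters, and binding was not measured.

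Within some enzyme families a single member held much of the RNA. Per length ALDH1A1 made up 85.9% ± 1.08 of the 19 aldehyde dehydrogenases and ALDH3A1 6.37% ± 0.844. Among the aldo-keto reductases the leading member changed with the length used. With exon length AKR1B10 made up 42.9% ± 0.273, AKR1B1 27.2% ± 0.576 and AKR1C2 17.3% ± 0.0469. With transcript length AKR1B10 made up 20.4%, AKR1B1 30.7% and AKR1C2, whose count is uncertain, 32.8%. CYP24A1, the enzyme that breaks down vitamin D, had 1013, 1207 and 1034 CPM and made up 80.9% ± 0.859 of the listed cytochrome P450 enzymes, some of which share sequence and may be undercounted. POR, the electron donor of these enzymes, averaged 178 ± 8.60 CPM. The drug-metabolising enzymes of liver were low, with CYP3A4 at 0.0496 CPM and CYP1A1 at 0.109 CPM, and CYP1A2 and CYP4A11 had no count.

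A single isoform held most of the RNA at several steps of glycolysis. PKM, pyruvate kinase, averaged 4864 ± 187 CPM, ENO1 4108 ± 585 CPM, GAPDH 2944 ± 429 CPM and LDHA 2613 ± 266 CPM, and GPI had 1208, 1048 and 1106 CPM. Per length ENO1 was 98.5% ± 0.336 of the enolases, HK1 92.7% ± 1.25 of the hexokinases and SLC2A1 85.5% ± 1.54 of the glucose transporters listed. LDHA was 97.8% ± 0.104 of the lactate dehydrogenases, but LDHB shares sequence with other genes and may be undercounted, so this share is uncertain. PFKP was 87.6% ± 0.390 of the phosphofructokinases with exon length and 74.8% with transcript length. HK1 itself averaged 62.3 ± 4.74 CPM and SLC2A1 212 ± 18.7 CPM. PKLR, PGK2, PGAM2 and SLC2A2 had no count. ALDOA, the muscle-type aldolase, was listed at only 11.7, 9.15 and 8.10 CPM. It shares 36.0% of its 75-base words with other genes and 42.3% of its exon length with a gene on the same strand, so its low value is uncertain.

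**Figure D3:**
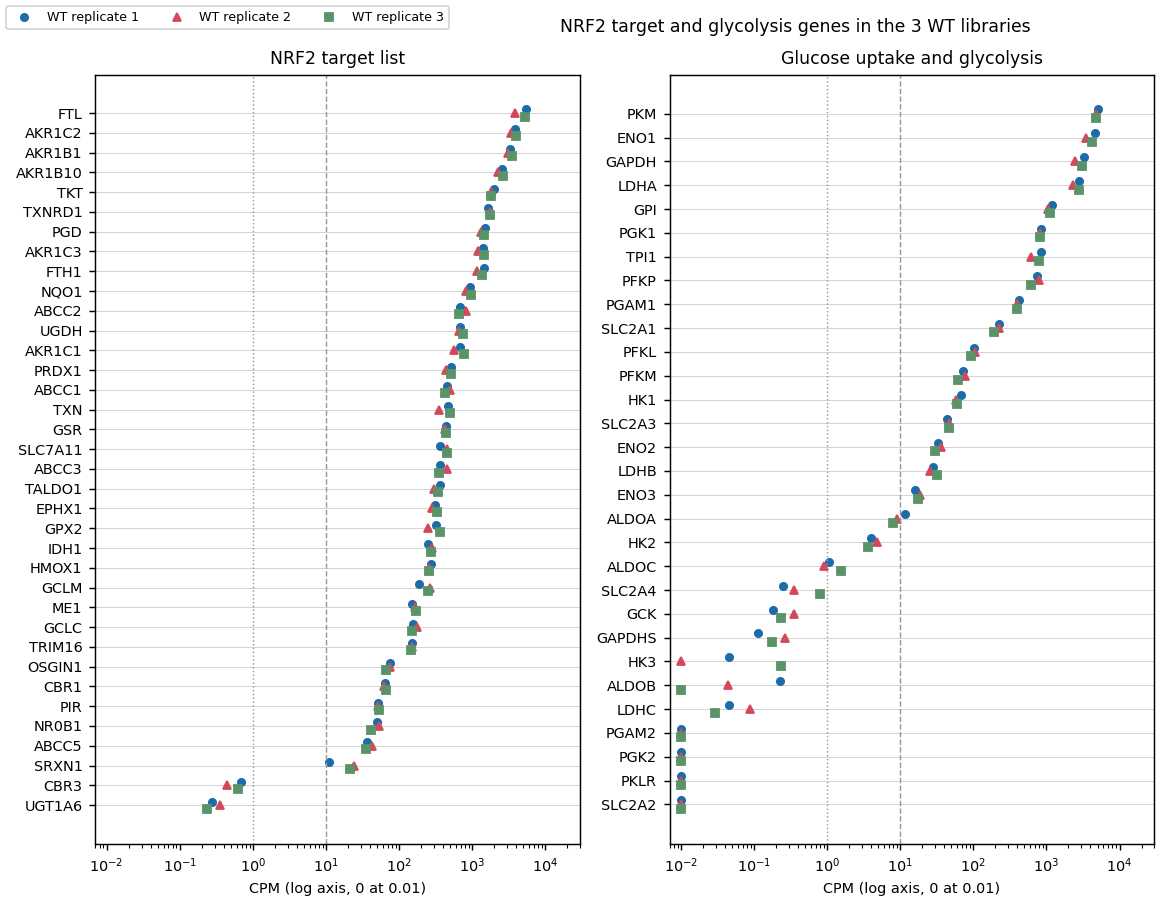
Points give CPM on a log axis in WT replicate 1 (circles), 2 (triangles) and 3 (squares) for members of the NRF2 target and glycolysis lists, with 0 drawn at 0.01 and lines at 1 and 10 CPM. Of the NRF2 targets drawn only CBR3 and UGT1A6 lie to the left of 10 CPM. The points of the glycolytic isoforms run from PKM at 4864 CPM to 4 genes without a count.

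All 28 genes of sterol and fatty acid synthesis reached 10 CPM. ACLY, which makes cytosolic acetyl-CoA, averaged 1698 ± 119 CPM, SCD, the stearoyl-CoA desaturase, 1419 ± 80.5 CPM and FASN, fatty acid synthase, 896 ± 156 CPM. In serine and one-carbon metabolism PSAT1 averaged 609.6 ± 59.99 CPM, MTHFD2 261 ± 40.03 CPM and PHGDH 169.9 ± 14.6 CPM, while SHMT2 averaged 146 ± 3.50 CPM. In the urea cycle, OTC had no count and ARG1 had 1. ASNS, asparagine synthetase, was listed at 5.79 ± 1.72 CPM, but 44.6% of its exon length is shared with another gene. In the hypoxia list CA12, a carbonic anhydrase, averaged 867 ± 71.1 CPM and CA9 4.57 ± 1.06 CPM, and EPAS1 and HIF1A averaged 679.8 ± 38.4 CPM and 439 ± 55.6 CPM. Of 11 metallothioneins, which bind zinc and copper, only MT2A reached 10 CPM, at 38.2 ± 5.19 CPM, and 6 were not detected.

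The 15 mitochondrially encoded transcripts held 6.99% ± 1.86 of the counts, and all reached 10 CPM. MT-CO1, a cytochrome oxidase subunit, had 18033, 11554 and 18144 CPM, with replicate 2 lowest. It shares sequence with a nuclear copy, as do MT-ATP6 and MT-ND2, and the pseudogene MTATP6P1 was listed at 632, 260.2 and 574 CPM. Cytosolic ribosomal protein genes held 4.70% of the counts, and 75 of 76 reached 10 CPM. The exception, RPS10, at 1.82, 1.64 and 1.00 CPM, shares 39.4% of its exon length with a gene on the same strand. Of the chaperones, HSP90AB1 averaged 1884 ± 82.3 CPM and HSPA5, the chaperone of the endoplasmic reticulum, 1883 ± 112 CPM, while HSPA1A and HSPA1B, which share most of their sequence with each other, had almost none. Replication-dependent histones, whose transcripts mostly lack poly(A), reached 10 CPM in 4 of 27.

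The noncoding RNAs made up little of the libraries, with long noncoding genes at 0.863% ± 0.0631 and pseudogenes at 0.401% ± 0.0149. NEAT1, the scaffold of paraspeckles, had 284, 389 and 277 CPM, NORAD, which binds PUMILIO proteins, 287, 332 and 307 CPM, and MALAT1, a nuclear RNA, 139, 248 and 132 CPM. NEAT1, NORAD and MALAT1 were each highest in replicate 2. SNHG5 and SNHG29, hosts of small nucleolar RNAs, averaged 196 ± 37.2 CPM and 187 ± 28.5 CPM. UCA1 had no count, and HOTAIR averaged 0.313 CPM.

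Basement membrane genes were prominent. Of 24, 15 reached 10 CPM, and 10 reached 100 CPM. LAMA5, a laminin alpha chain, had 1193, 1605 and 1014 CPM, and made up 94.2% ± 0.653 of the alpha chains per length. AGRN, agrin, averaged 938 ± 199.8 CPM, COL4A2 633 ± 88.6 CPM and HSPG2, perlecan, 496 ± 109 CPM. LAMB1 and LAMC1, the partners of such a laminin, averaged 393 ± 29.9 CPM and 440.3 ± 23.2 CPM. COL7A1, the anchoring fibril collagen, averaged 397 ± 109 CPM. LAMA1 and LAMA2 were under 1 CPM.

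In the interstitial matrix 15 of 29 genes reached 10 CPM. TGFBI, a secreted adhesion protein, averaged 2286 ± 194 CPM, VCAN, versican, 538 ± 20.4 CPM and COL5A1 298 ± 80.1 CPM. COL3A1 at 0.163 CPM, DCN at 0.0304 CPM and POSTN at 0.0652 CPM, typical products of fibroblasts, were low, and MGP was at or under 3 counts. Among proteases and crosslinkers TGM2, a transglutaminase, averaged 622 ± 75.9 CPM, PLOD2, a collagen lysyl hydroxylase, 351 ± 45.9 CPM and LOXL2, a lysyl oxidase, 303 ± 26.04 CPM. Of the 9 listed matrix metalloproteinases only MMP15 reached 10 CPM, at 23.4 ± 1.62 CPM, and MMP3 and MMP13 had no count. Among 24 integrin subunits, 13 reached 10 CPM, among them ITGB1 at 1821 ± 222 CPM, ITGA3 at 645 ± 69.9 CPM and ITGAV at 559.7 ± 97.4 CPM. ITGA3 with ITGB1 binds laminin. Per length ITGB1 was 76.4% ± 1.42 of the beta subunits, and ITGAV and ITGA3 were 38.5% ± 2.91 and 37.4% ± 2.63 of the alpha subunits with exon length. With transcript length ITGAV was 26.5% and ITGA3 49.4%, so the order of the alpha subunits depends on the length used.

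Of 22 class I and peptide loading genes 11 reached 10 CPM, 4 of them at least 100 CPM. The loading chaperones CANX and CALR averaged 884 ± 33.6 CPM and 876 ± 52.7 CPM. B2M, the light chain of class I molecules, had 98.3, 101 and 102 CPM and TAP1, a peptide transporter, averaged 27.6 ± 1.44 CPM. Of the heavy chains HLA-C averaged 1.38 ± 0.130 CPM and HLA-B 0.854 ± 0.248 CPM. Reads of HLA genes also depend on how far the cell's alleles differ from the reference genome, and this was not tested here. No class II gene of 10 reached 10 CPM. The class II regulator CIITA averaged 1.37 ± 0.300 CPM, and HLA-DRB1, HLA-DQA1, HLA-DQB1, HLA-DPA1 and HLA-DPB1 had at most 2 counts.

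Interferon receptor and kinase genes were transcribed, and the induced genes were uneven. IFNAR1 averaged 45.5 ± 3.49 CPM, JAK1 432 ± 23.01 CPM and STAT3 317 ± 14.5 CPM. IFNB1, IFNA2, IFNL1, IFNL2, IFNL3 and IFNK had no count. Among induced genes OAS3 had 130.5, 136 and 120.0 CPM and OAS1 44.2, 43.7 and 46.04 CPM, whereas OAS2 averaged 0.0300 CPM and shared no sequence. ISG15 averaged 3.98 ± 0.895 CPM and IFIT1 1.80 ± 0.130 CPM, while MX2 and XAF1 had no count. Of the sensors, ADAR, an RNA editing enzyme, averaged 417 ± 25.7 CPM, MAVS 278 ± 12.7 CPM and EIF2AK2, the kinase PKR, 108 ± 6.10 CPM. RIGI, a sensor of viral RNA, averaged 17.4 ± 2.53 CPM. CGAS, the sensor of cytosolic DNA, had 4, 0 and 0 counts and STING1, its adaptor, averaged 0.331 ± 0.211 CPM. AIM2, TLR7 and TLR8 had no count, and TREX1, whose exons lie within those of another gene, was listed at 0.

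Of 33 cytokines and chemokines 7 reached 10 CPM. LIF, a cytokine of the interleukin 6 family, averaged 224 ± 38.1 CPM, CXCL5, a neutrophil chemokine, had 72.1, 104 and 112 CPM, and IL18 averaged 83.9 ± 7.18 CPM. IL11 averaged 52.9 ± 9.83 CPM and CCL2, a monocyte chemokine, 34.1 ± 0.564 CPM. CXCL8 stood at 3.19 ± 1.53 CPM and IL6 at 0.232 ± 0.152 CPM, and TNF, CXCL9 and CXCL10 had no count. Of the 15 NF-kB components 12 reached 10 CPM, with TNFRSF1A, the main receptor of tumour necrosis factor, at 310.1 ± 23.97 CPM and RELA at 99.9 ± 4.77 CPM. Among checkpoint ligands PVR averaged 259 ± 24.5 CPM, NECTIN2 120.2 ± 4.14 CPM and CD276 55.8 ± 3.96 CPM, while CD274, which encodes PD-L1, averaged 0.640 ± 0.0832 CPM. The complement regulators CD46 and CD59 averaged 296 ± 52.6 CPM and 124 ± 8.21 CPM, and CLU, clusterin, 512 ± 5.67 CPM. TFPI2, a protease inhibitor, averaged 198 ± 18.5 CPM. In prostaglandin synthesis PTGES3 averaged 447 ± 20.5 CPM, PTGS2 12.5 ± 2.83 CPM and PTGS1 1.47 ± 0.364 CPM.

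**Figure D4:**
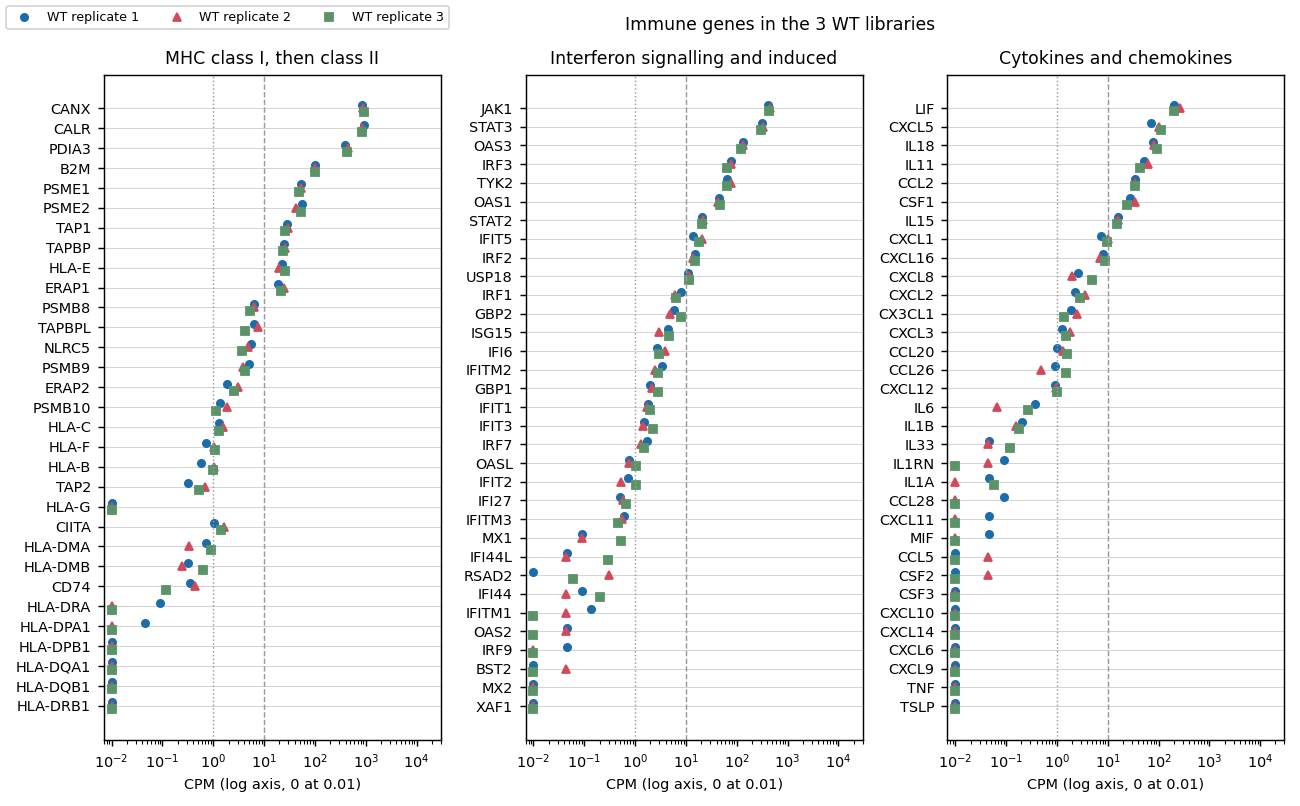
Points give CPM on a log axis in WT replicate 1 (circles), 2 (triangles) and 3 (squares) for members of the MHC class I and class II lists, the interferon list and the cytokine list, with 0 drawn at 0.01 and lines at 1 and 10 CPM. CANX, CALR and B2M lie above 10 CPM while HLA-B and HLA-C do not, and no class II gene does.

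The 3 libraries agreed closely for most genes. The common biological coefficient of variation (edgeR, 9252 genes of at least 10 CPM) was 10.7%, and without replicate 2 it was 8.74%. The median coefficient of variation per gene was 9.26% over these genes and 9.68% for those from 10 to 100 CPM. Counting error of independent single reads alone gave a median of 2.73% for genes from 10 to 100 CPM. That value is approximate, given the excess of even counts. Across genes, which are not replicates, Pearson's r of log2 (CPM + 1) was 0.988 for replicates 1 and 2, 0.992 for 1 and 3 and 0.986 for 2 and 3. For the same pairs the chi-square of the counts, divided by its degrees of freedom, came to 103, 22.3 and 97.7. All pairs therefore differed by more than counting error, and none was a repeat deposit of 1 library. Of these genes 494 (5.34%) differed 1.5 times or more between the highest and lowest library, and 22 differed 2 times or more. Replicate 2 was the farthest library in 45.1% of the genes.

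Whole groups of genes moved with replicate 2. Beside a median over all genes of at least 10 CPM of 0.12 (log2 CPM, replicate 2 minus the mean of the other libraries), mitochondrially encoded transcripts were at -0.74, ribosomal protein genes at -0.55 and aldo-keto reductases at -0.22. Basement membrane genes were at 0.39 and integrins at 0.24. LAMA5 and MALAT1 were highest in this library, and MT-ND3, with 628, 214 and 623 CPM, was low there. The median also ran with transcript length. It was -0.19 for genes whose median transcript was under 1000 bases and 0.18 for those of 8000 bases and above. The part of transcript length in the list values was not tested.

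**Figure D5:**
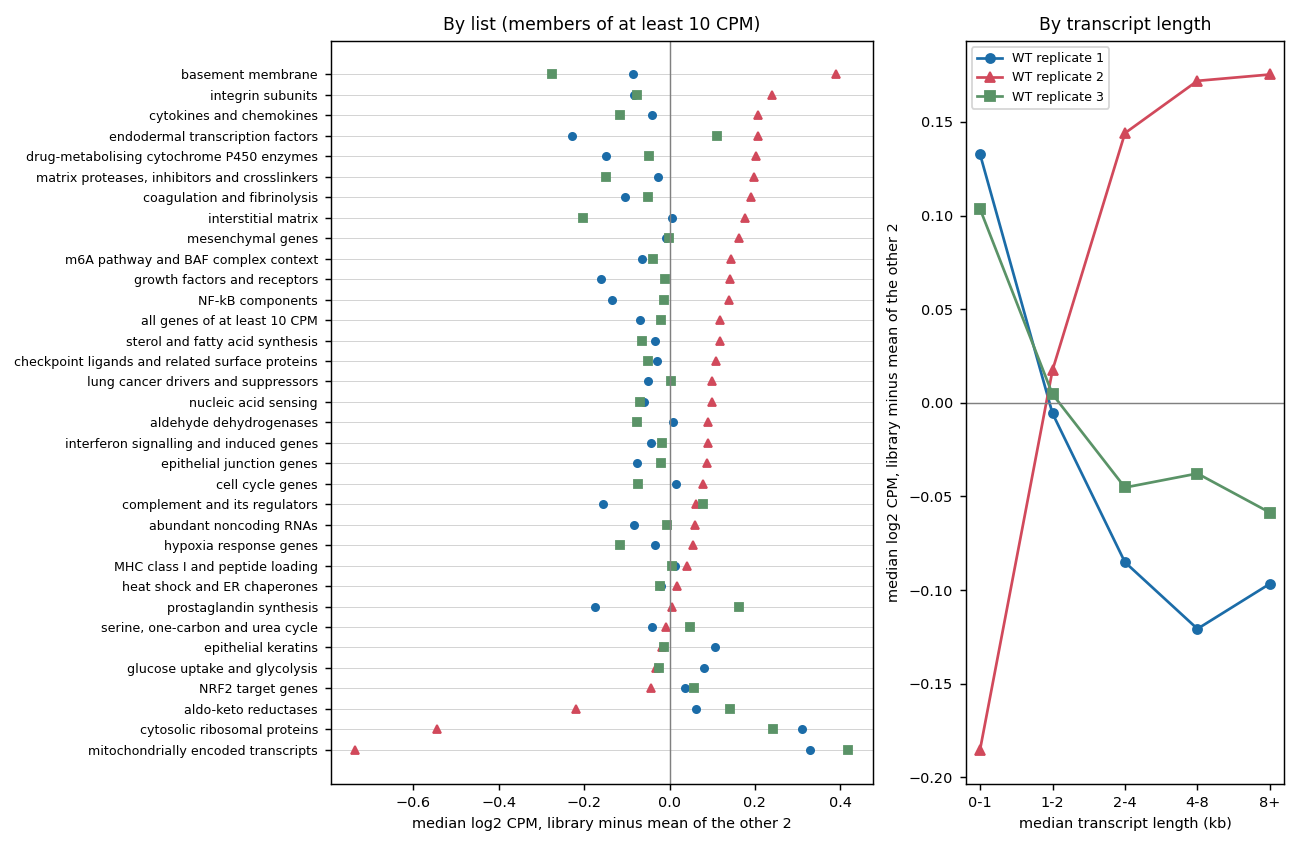
Left, the median difference in log2 CPM between 1 WT library and the mean of the other libraries, for members of at least 10 CPM in each list. Right, the same median by median transcript length in kb. Replicate 2 (triangles) lies lowest for mitochondrially encoded transcripts, at -0.74, and highest for basement membrane genes, at 0.39.

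Single genes also set libraries apart. CHAC1, a glutathione-degrading enzyme induced by amino acid stress, had 9.36, 9.70 and 33.3 CPM, and was high in replicate 3. The stress genes ATF3 and PMAIP1 were high there too, at 8.65, 10.6 and 18.5 CPM and at 10.6, 13.2 and 22.8 CPM. TSC22D3, a glucocorticoid-induced gene, had 15.5, 15.98 and 36.9 CPM. In replicate 1 the lowest genes relative to the others were KLF2, with 7.31, 13.7 and 16.1 CPM, and SRXN1, a sulfiredoxin and NRF2 target, with 11.1, 23.8 and 21.02 CPM. SRXN1 shares sequence with another gene. In replicate 2 SORCS2 was high, with 13.1, 24.2 and 10.9 CPM. No label gives a day or a batch for these libraries.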

How the data were processed

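RNA of unmodified A549 cells was measured in 3 libraries (WT replicates 1, 2 and 3). The authors deposited whole-number read counts per Ensembl gene, 60617 genes in 1 table, and only the 3 WT columns were used. Per the submitters' processing notes, the genome build was GRCh38 and the tools named are edgeR 3.32.1, featureCounts 2.0.1, STAR 2.7.0d and Trim Galore 0.6.6, in no stated order. The annotation release and the strand and multimapping settings are not given in the sources used here, so genes that overlap others or have near-identical copies are uncertain.

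Counts were divided by library totals (CPM). TPM used the union exon length of GENCODE 29, which held 58542 of the genes, and, as an alternative, the median transcript length of its basic set. Genes were put in level classes by mean CPM, with limits at 1, 10 and 100 CPM and a floor of 3 counts over the 3 libraries. A gene was marked as uncertain when at least 25% of its 75-base words (1 in 8 sampled) occurred in another gene's transcripts, or at least 25% of its exon length lay in a gene on the same strand. Dispersion came from edgeR 4.0.16 in R 4.3.3 with TMM scaling (factors 0.967, 1.053 and 0.982) on genes of at least 10 CPM. Tables were made with Python 3.11.15 and pandas 2.3.3, and the dispersion step was tested on simulated data. With 1 group no test was made and no p-value is given. Library totals of 33970369 to 45042635 counts set the precision, and floors cover counting error only.

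The members and lists were chosen with earlier results of these data known. Named genes were the 20 with the most reads, up to 5 members of each list with the highest level per length, undetected members (up to 8 a list), members of the type II, NRF2, glycolysis and driver lists, the 5 genes farthest above and below in each library, and the 3 most abundant genes of each noncoding type. Other genes named, the enzyme family shares, the shared-sequence mark, the transcript-length TPM, the chromosome 9 window and the search for genes seen in 1 library were chosen after values were seen. Alternatives were TMM and DESeq2 1.42.0 size factors, totals without mitochondrially encoded genes, TPM, lower or no level minimum, no genes of shared sequence, and each library left out. Some members of the lists are counted in the lists but not reported by name here.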

Additional observations from a re-analysis of the deposited data

How the results depend on the processing

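The number of genes of at least 1 CPM ran from 13118 (1 CPM in every library) to 15243 (a mean of 0.5 CPM) over the alternatives, and the number of list genes of at least 10 CPM from 529 (on TPM) to 560 (without replicate 1). With a library left out, 145 to 169 list genes were at or under 3 counts, beside 133 with all 3, as fewer counts were summed. With totals that leave out mitochondrially encoded genes, the 100 most abundant genes held 20.3% of the counts, long noncoding genes 0.927% and pseudogenes 0.432%, and 11 of the 20 most abundant genes remained, since the other 9 were mitochondrially encoded. On TPM the 100 most abundant genes held 42.1% with exon length and 35.2% with transcript length, and 231 and 332 genes held 50%, beside 726 genes for counts. The coefficient of variation depended on the genes included: the edgeR value was 12.4% from 1 CPM and 14.7% for all genes with a count, and the median per gene was 10.97% and 28.8%. Leaving out each library gave 8.74% to 11.7% for the edgeR value and 6.19% to 9.24% for the median. The differences of replicate 2 in the mitochondrial, ribosomal protein and basement membrane lists kept their sign under every alternative run. No paired analysis was possible because only 1 group is described and no test was made. Genes under 1 CPM rest on few counts, and genes of shared sequence cannot be called low from these counts.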

Other observations

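A few transcripts of liver, blood and connective tissue had counts in a single library. A gene was taken as such when 1 library held at least 10 counts and at least 20 times the sum of the other libraries, a rule chosen after the values were seen. There were 25 such genes in replicate 1, 87 in replicate 2 and 9 in replicate 3, of which 6, 37 and 1 were nuclear protein-coding. In replicate 2 they included the intestinal phosphatase ALPI with 36 counts, the collagen chain COL1A2 with 28, and the plasma proteins TTR and APOA2 with 24 each, HRG with 18 and APOC3 with 16. Genes of blood cells were there too, with C1QB and PTPN7 at 22 counts each, GZMA and CD96 at 14 each and CCL18 at 12, as was CDH5, an endothelial cadherin, at 12. The whole set in replicate 2 summed to 1165 counts of 45042635, and the highest single count was 36.

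Several genes next to well-expressed relatives were much lower, although each shared less than 25% of its sequence and exon length with another gene. They were KRT19 beside KRT18, OAS2 beside OAS1 and OAS3, CCND2 beside CCND1 and CCND3, and HK2 beside HK1. Per length HK2 averaged 2.47 TPM and HK1 35.4 TPM. OAS2 averaged 0.0176 TPM, OAS1 32.4 TPM and OAS3 56.1 TPM.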
